A study of Mus musculus with 2 samples.

Results

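The retinoid binding and metabolism genes described here were 10 genes, *Crabp1*, *Crabp2*, *Rdh10*, *Dhrs9*, *Sdr16c5*, *Sdr16c6*, *Lrat*, *Stra6*, *Rara* and *Rarg*, taken by symbol from the 32285 genes of the count matrices. The study compared sebocytes (SEB) of back skin (sSEB) with those of the preputial gland (pSEB), a large sebaceous-like gland of rodents, by single-cell RNA sequencing. Both tissues came from the same 3 wild-type male C57BL/6 mice aged 52 weeks, and no treatment is named. They were taken as biopsies of back skin and as samples of the preputial gland (PG). The material of the 3 animals was pooled before digestion, so each tissue was 1 library, animals cannot be separated, and tissue and library cannot be told apart. With 1 library per tissue no difference was tested. Levels are counts of unique molecular identifiers (UMIs) summed over the cells of a class and given per 1000000 UMIs of that class (CPM), and every interval is an exact 95% interval that covers counting error only.

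Retinol is taken up from its carrier in blood through STRA6 and stored as retinyl ester by LRAT. Short-chain dehydrogenases of the RDH, DHRS and SDR16C families oxidise retinol to retinal, which aldehyde dehydrogenases convert to retinoic acid. CRABP1 and CRABP2 carry retinoic acid in the cytoplasm, and the nuclear receptors RARα and RARγ, encoded by *Rara* and *Rarg*, switch target genes when they bind it. In skin, retinoic acid is known for its effects on keratinocyte differentiation and for the shrinkage of sebaceous glands (SG) under retinoid drugs.

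The skin library held 8899 cells with 500 or more genes, 1000 or more UMIs and no more than 10% mitochondrial UMIs, with a median of 2386 UMIs, and the PG library held 4699 cells with a median of 2729 UMIs. The skin matrix listed 6794880 barcodes and the PG matrix 737280, although the labels name a single kit. The lists had 77142 barcodes in common, and 0 barcodes were kept as cells in both. Cells were placed in classes by their own marker genes. The gate for SEB kept 28 cells in skin and 793 in PG, and 11 of the 12 SEB markers were found in at least 10% of the sSEB and 9 of 12 in at least 10% of the pSEB. The gate used these same markers, so their detection is no check on the class. In skin 134 cells and in PG 854 cells lay just outside this gate. The sSEB of the study were a cluster whose major subpopulations in skin expressed genes of the hair follicle. Here sSEB and pSEB name only the gated cells, a different set. Keratinocytes, fibroblasts, endothelial cells, T cells, macrophages with dendritic cells, and contractile cells were found in both tissues. Hair matrix with inner root sheath cells, dermal papilla cells, suprabasal keratinocytes, melanocytes and skeletal muscle cells reached 20 cells in skin only.

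The 10 genes are protein-coding, lie on 7 chromosomes (GRCm38, GENCODE M21) and share no stretch of 31 bases between any pair of their transcripts. *Sdr16c5* (chr4:3995936-4019663) and *Sdr16c6* (chr4:4055929-4077522) are neighbours on the minus strand, 36265 bp apart, with 0 annotated genes between them. *Crabp1* (chr9:54764748-54773110) and *Stra6* (chr9:58063788-58153996) lie on the plus strand of the same chromosome, and *Crabp2* (chr3:87948666-87953376, plus strand) shares its chromosome with *Lrat* (chr3:82892579-82903973, minus strand). *Rdh10* (chr1:16105774-16133734), *Dhrs9* (chr2:69380445-69404533) and *Rara* (chr11:98927818-98974942) are on plus strands, and *Rarg* (chr15:102234938-102257517) on a minus strand. The 250 bases before the RefSeq start (GRCm38.p6) are shown for 4 genes with a single annotated start whose UMIs lay mostly in 1 or 2 classes or differed between the tissues. Capitals mark AGGTCA on either strand, the hexamer core of the repeats that retinoic acid receptors bind, and TATAA on the gene's strand, the core of the TATA box. Of 32851 promoters of this length, 14.0% held AGGTCA (or TGACCT, its other strand) and 16.0% held TATAA.
*Crabp1* (chr9:54764498-54764747, plus strand): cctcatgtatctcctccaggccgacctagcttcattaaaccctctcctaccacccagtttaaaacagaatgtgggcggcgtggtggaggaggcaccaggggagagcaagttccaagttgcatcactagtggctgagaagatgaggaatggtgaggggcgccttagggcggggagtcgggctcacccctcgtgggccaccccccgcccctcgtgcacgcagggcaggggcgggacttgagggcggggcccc
*Dhrs9* (chr2:69380212-69380461, plus strand): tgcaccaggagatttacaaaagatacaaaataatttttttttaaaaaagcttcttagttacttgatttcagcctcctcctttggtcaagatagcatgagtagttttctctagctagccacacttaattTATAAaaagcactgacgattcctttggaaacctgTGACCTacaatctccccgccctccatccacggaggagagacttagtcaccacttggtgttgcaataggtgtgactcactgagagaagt
*Sdr16c6* (chr4:4077515-4077764, minus strand): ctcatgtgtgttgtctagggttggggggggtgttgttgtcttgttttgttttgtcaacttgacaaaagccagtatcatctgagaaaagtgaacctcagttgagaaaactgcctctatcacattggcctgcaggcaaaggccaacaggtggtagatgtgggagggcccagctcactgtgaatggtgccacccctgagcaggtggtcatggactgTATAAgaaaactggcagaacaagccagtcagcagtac
*Lrat* (chr3:82903975-82904224, minus strand): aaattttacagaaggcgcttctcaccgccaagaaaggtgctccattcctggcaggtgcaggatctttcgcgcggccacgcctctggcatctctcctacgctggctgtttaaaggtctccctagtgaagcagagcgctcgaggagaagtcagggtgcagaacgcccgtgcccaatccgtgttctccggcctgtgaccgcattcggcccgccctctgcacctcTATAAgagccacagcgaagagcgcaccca
The *Crabp1* window held neither motif and had 63.6% GC, beside a median of 52.4% over all promoters. The *Dhrs9* window had 40.4% GC, TGACCT from 88 bases and TATAA from 122 bases before the start, which did not overlap. In the *Sdr16c6* window TATAA began 37 bases before the start, and in the *Lrat* window 29 bases before it. A match of these letters is a description of the window and not evidence of a bound site.

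**Figure D1:**
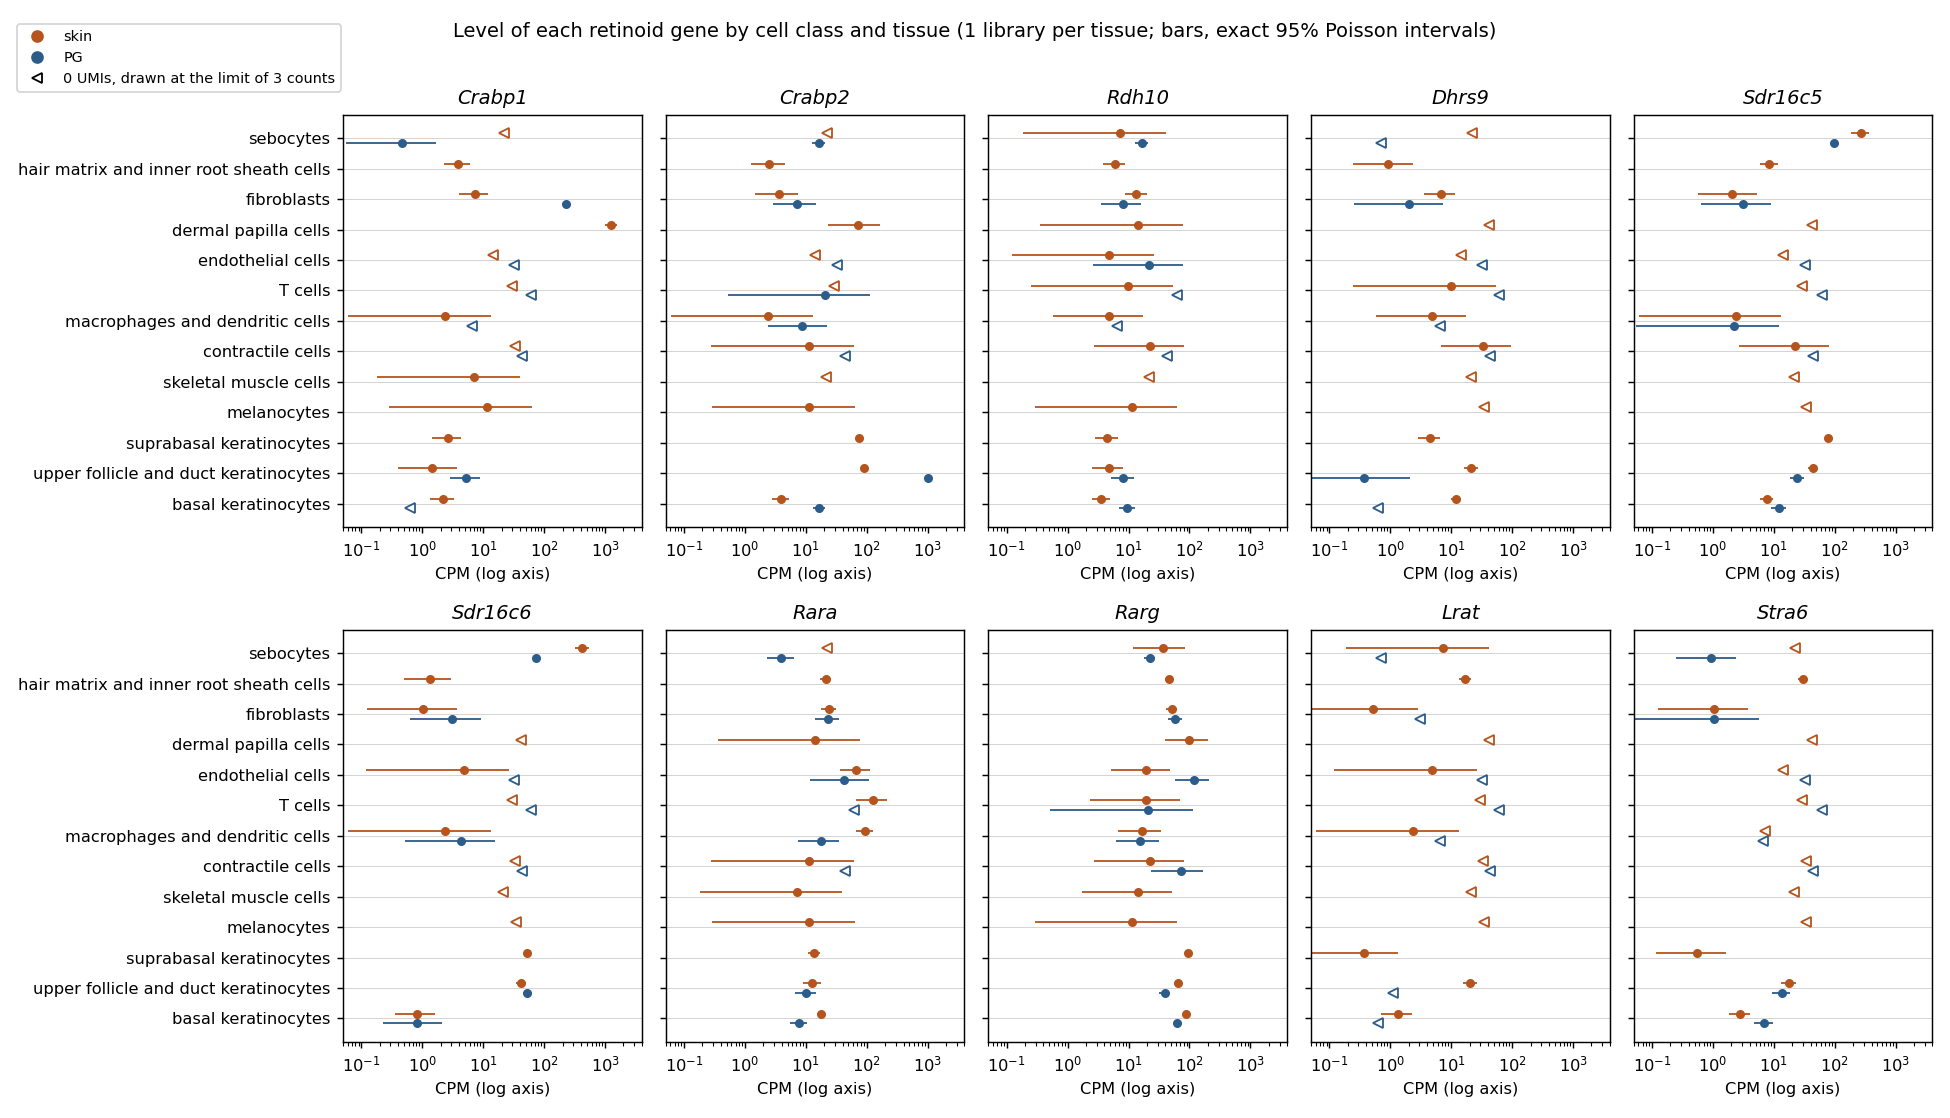
CPM on a log axis of each of the 10 genes in every class of at least 20 cells, skin in brown and PG in blue, with exact 95% Poisson intervals; open triangles mark 0 UMIs, drawn at the level that 3 counts would give. *Crabp1* stands highest in dermal papilla cells of skin (1254 CPM) and in fibroblasts of PG (226 CPM), *Crabp2* in the duct class of PG (1024 CPM), and *Sdr16c5* and *Sdr16c6* in SEB of both tissues.

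*Crabp1*, whose product binds retinoic acid in the cytoplasm and whose GC-rich promoter window above held neither motif, had its highest level in a mesenchymal class in both libraries. In skin its level was 1254 CPM (1007 to 1543) in the 29 dermal papilla cells, the mesenchymal cells at the base of the hair follicle (HF), with 89 of its 253 UMIs. The next level in skin was 11.4 CPM in melanocytes, from 1 UMI, followed by 7.25 CPM (3.96 to 12.2) in fibroblasts. Basal keratinocytes held 2.15 CPM, and sSEB held 0 UMIs, which allows up to 22.0 CPM. The interval of the papilla class thus overlapped that of no other class. After every cell was thinned to 1000 UMIs, 55.2% of papilla cells (35.7 to 73.6) carried a UMI, against 0 of the 67 T cells, with median depths of 2056 and 1310 UMIs. Without thinning, 69.0% of papilla cells did.

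In PG, fibroblasts held 219 of the 258 *Crabp1* UMIs, 84.9%, at 226 CPM (197 to 258). The duct class followed at 5.20 CPM (2.84 to 8.73), where 14 UMIs lay in 0.290% of the cells. Basal keratinocytes of PG held 0 UMIs in 1710 cells, which allows up to 0.622 CPM, and pSEB held 2 UMIs (0.462 CPM). Thinned to 1000 UMIs, 10.1% of PG fibroblasts carried a UMI (7.80 to 12.8) and 0 of the basal keratinocytes did, at median depths of 1349 and 2632.5 UMIs. Against skin fibroblasts, the log2 ratio of PG fibroblasts was 4.96 (4.18 to 5.86), which is 31.2-fold. No papilla cells were gated in PG, so the 2 highest classes were not the same class.

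Within each library *Crabp1* was gathered in a small number of cells. Clusters had been formed without the 10 genes. In PG, cluster 10 (187 cells, led by *Spon1*, *Fibin*, *Timp1* and *Rspo3*, 87.2% of them gated as fibroblasts) held 91.5% of its UMIs at 657 CPM (576 to 747), with a UMI in 44.9% of its cells. The other PG clusters made up mostly of fibroblasts stood apart from it, since clusters 8 and 12 held 0 UMIs in 248 and 113 cells and cluster 16 held 37.4 CPM (10.2 to 95.7). In skin, cluster 21 (128 cells, led by *Ndnf*, *Col11a1*, *Pappa2* and *Slc26a7*) held 66.0% of the UMIs at 681 CPM (581 to 792), with a UMI in 35.2% of cells. Of its cells 33.6% were in no class, more than in any single class, and its leading genes also included the papilla marker *Hhip*. Skin cluster 38 (33 cells, 63.6% gated as melanocytes) followed at 83.4 CPM from 10 UMIs. The lower level of *Crabp1* in the fibroblast class of PG than in its cluster 10 thus came with fibroblast clusters in which no UMI was counted.

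*Crabp2*, which brings retinoic acid to its nuclear receptors, had most of its UMIs in suprabasal or upper follicle and duct keratinocytes. In skin it was found at 89.6 CPM (78.8 to 101) in upper follicle and duct keratinocytes, 74.2 CPM (67.1 to 81.8) in suprabasal keratinocytes and 3.89 CPM (2.76 to 5.35) in basal keratinocytes. Dermal papilla cells held 70.4 CPM from 5 UMIs (22.9 to 164), and the intervals of these 3 highest classes overlapped. sSEB held 0 UMIs, which allows up to 22.0 CPM. Within skin, the log2 ratio to basal keratinocytes was 4.52 (4.03 to 5.06) for the upper follicle and duct class and 4.25 (3.77 to 4.77) for the suprabasal class.

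In PG the duct class held 2755 of the 3000 *Crabp2* UMIs, 91.8%, at 1024 CPM (986 to 1063). Basal keratinocytes of PG held 16.6 CPM (13.2 to 20.7) and pSEB 16.2 CPM (12.6 to 20.5), and PG fibroblasts 7.22 CPM (2.90 to 14.9). Barcodes of at most 100 UMIs, which hold free RNA, carried *Crabp2* at 125 CPM in PG and 30.2 CPM in skin. Thinned to 1000 UMIs, 47.1% of duct cells (43.3 to 50.9) and 0 of the 605 fibroblasts carried a UMI, at median depths of 3556 and 1349 UMIs, and 71.2% and 0.992% did without thinning. The duct class of PG stood at a log2 ratio of 5.95 (5.63 to 6.29) to basal keratinocytes of PG, and at 3.51 (3.33 to 3.71), or 11.4-fold, to the upper follicle and duct class of skin. Basal keratinocytes as a class also held more *Crabp2* in PG than in skin, by a log2 ratio of 2.09 (1.52 to 2.69). The PG clusters gated mostly as basal keratinocytes were far apart, however. Clusters 1, 3 and 6 held 1.68, 7.89 and 0.953 CPM, and clusters 14 and 21 held 0 UMIs. Clusters 4, 13 and 17 held 69.7, 86.6 and 199 CPM. The ratio of the basal classes thus does not hold for every basal cluster of PG.

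Clusters 5 and 7 of PG together held 91.2% of the *Crabp2* UMIs of that library in 637 cells. Cluster 7 (261 cells, led by *Gm94*, *Serpina1e*, *Cst6* and *Gsdma*) held 1588 CPM (1519 to 1659) with a UMI in 93.1% of its cells, and cluster 5 held 608 CPM (564 to 653) with a UMI in 61.7%. A small cluster of 26 pSEB, cluster 25, led by *Pnpla5* and *Awat2*, held 188 CPM (135 to 255), while the pSEB clusters 2, 9 and 15 held 0.928, 8.62 and 24.8 CPM. Cluster 25 had a median of 9242 UMIs per cell, against 4249, 7244 and 6110 in those 3 clusters. By stage, *Crabp2* was at 11.3 CPM (7.56 to 16.2) in early and 27.3 CPM (19.6 to 37.1) in late pSEB, a log2 ratio of 1.28 (0.55 to 2.01) with a mean below 20 CPM. The share of cells with a UMI was 3.34% in early and 3.10% in late pSEB, so the 41 UMIs of late cells lay in few cells. In skin the highest cluster was cluster 17, of which 96.0% of cells were suprabasal, at 166 CPM (144 to 190).

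**Figure D2:**
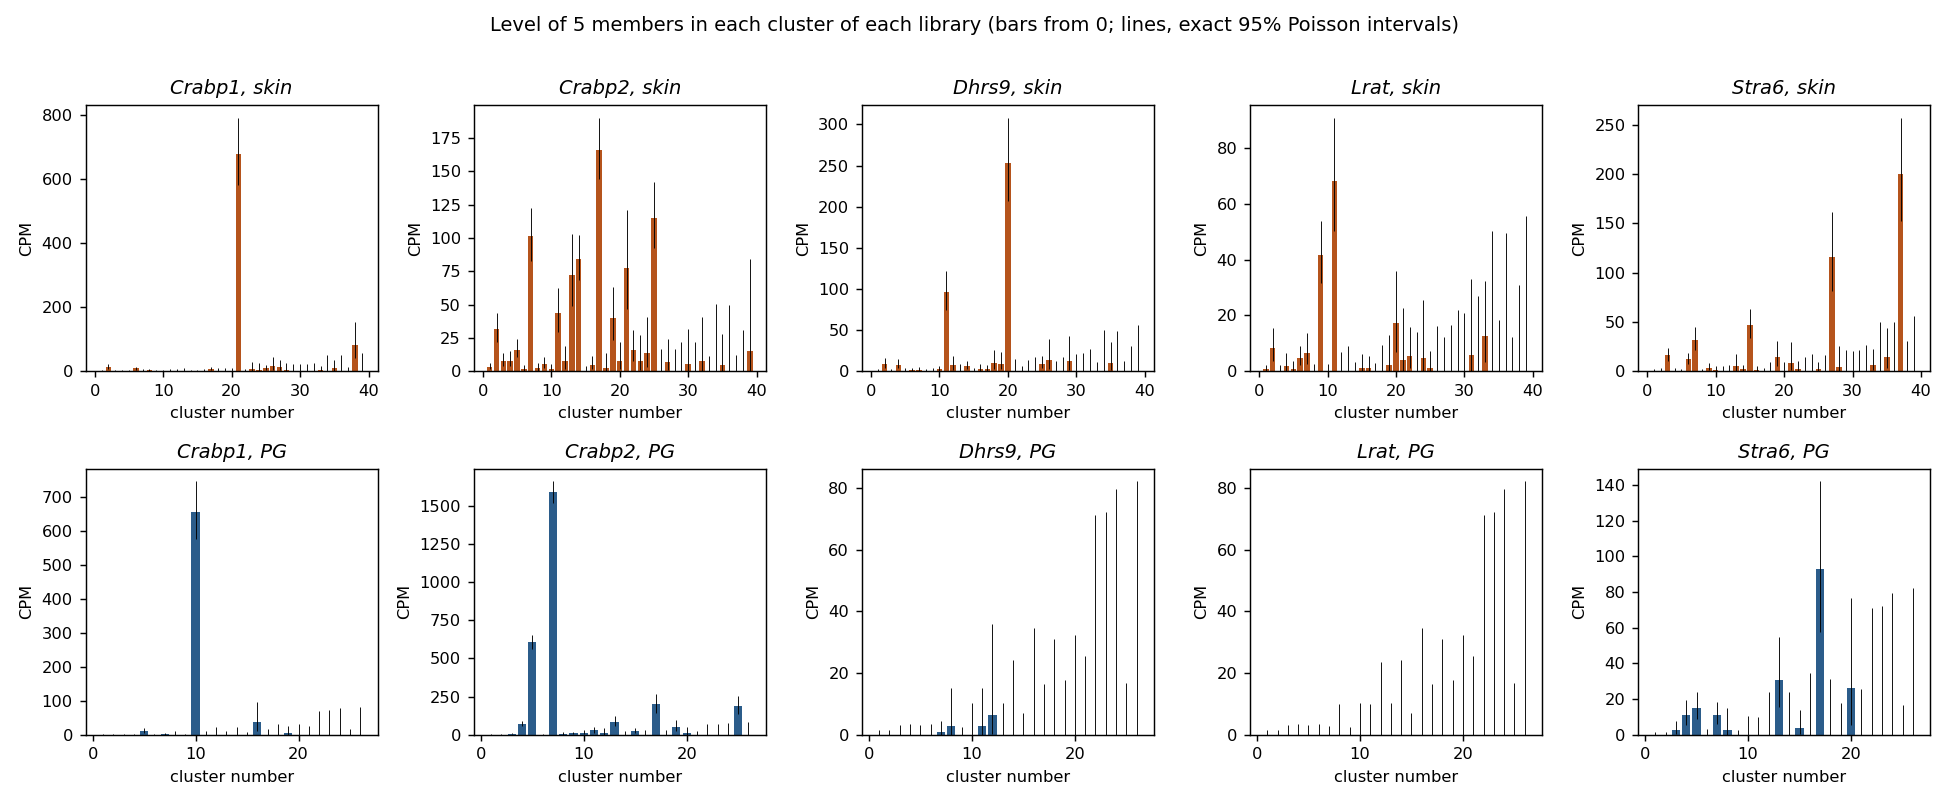
CPM of *Crabp1*, *Crabp2*, *Dhrs9*, *Lrat* and *Stra6* in each of the 39 clusters of skin and 26 clusters of PG, with clusters numbered by size, a scale of its own in each panel and thin lines for exact 95% Poisson intervals. *Crabp1* is high in cluster 21 of skin (681 CPM) and cluster 10 of PG (657 CPM), *Dhrs9* in clusters 20 and 11 of skin (254 and 96.0 CPM), and *Lrat* has no bar in PG.

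*Sdr16c5* and *Sdr16c6*, the neighbouring genes for epidermal retinol dehydrogenases, had their highest level in SEB in both tissues. The *Sdr16c5* level was 264 CPM (185 to 366) in sSEB, 76.2 CPM (69.0 to 83.9) in suprabasal keratinocytes, 43.3 CPM (35.9 to 51.8) in upper follicle and duct keratinocytes and 7.58 CPM (5.95 to 9.52) in basal keratinocytes of skin. In PG it was 96.9 CPM (87.8 to 107) in pSEB, 24.2 CPM (18.6 to 30.8) in the duct class and 12.0 CPM (9.13 to 15.6) in basal keratinocytes. The order of the keratinocyte and SEB classes was thus the same in both tissues, and neighbouring intervals did not overlap. pSEB held 419 of the 597 *Sdr16c5* UMIs of PG, 70.2%. In skin the sSEB held 36 of 709, 5.08%, and suprabasal keratinocytes 410, 57.8%. Thinned to 1000 UMIs, 17.9% of sSEB (6.06 to 36.9) and 10.1% of pSEB (8.08 to 12.4) carried a UMI, and 0 of the T cells of either tissue did (60.7% and 34.3% of SEB without thinning, median depths 4482 and 5136 UMIs, T cells 1310 and 1475).

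*Sdr16c6*, whose promoter window above holds TATAA and no AGGTCA, fell further than *Sdr16c5* from SEB to basal keratinocytes in both tissues. From pSEB to the duct class *Sdr16c6* fell less. Its level was 419 CPM (317 to 542) in sSEB, 52.6 CPM (46.6 to 59.1) in suprabasal keratinocytes, 41.9 CPM (34.6 to 50.3) in upper follicle and duct keratinocytes, and 0.820 CPM in basal keratinocytes of skin, from 8 UMIs in 3521 cells. Of its 497 UMIs in skin, sSEB held 57, 11.5%, and suprabasal keratinocytes 283, 56.9%. In PG the level was 73.1 CPM (65.2 to 81.6) in pSEB, 52.8 CPM (44.4 to 62.2) in the duct class and 0.829 CPM in basal keratinocytes, from 4 UMIs. Barcodes of at most 100 UMIs in PG carried it at 54.8 CPM, close to the level of the duct class. The duct cells were not alike, since *Sdr16c6* was at 86.9 CPM (71.4 to 105) in the *Crabp2*-rich cluster 7 and at 24.3 CPM (16.3 to 34.9) in cluster 5.

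Against basal keratinocytes of the same library, 3 of the 10 genes were abundant enough in each tissue to be counted, meaning a mean of at least 20 CPM over the 2 classes and at least 10 UMIs. In PG, *Sdr16c5* (log2 ratio 3.01, 2.61 to 3.43) and *Sdr16c6* (6.46, 5.09 to 8.35) were at least 2-fold higher in SEB, where 7.98% of 5289 genes were. *Rarg* was at least 2-fold lower (-1.48, -1.82 to -1.14), where 9.7% of genes were. In skin the same 3 genes passed in the same directions, with log2 ratios of 5.12 (4.51 to 5.72) for *Sdr16c5*, 8.996 (7.92 to 10.28) for *Sdr16c6* and -1.23 (-2.86 to -0.00) for *Rarg*, the last from 5 UMIs in sSEB. The *Rarg* ratio in skin was under 2-fold with at most 5% mitochondrial UMIs (-0.85) and with an upper UMI limit together with doublet removal (-0.71). Of 5137 genes in skin, 18.8% were at least 2-fold higher and 17% at least 2-fold lower. The limit on the mean kept *Sdr16c5* and *Sdr16c6* through their level in SEB, since both were below 20 CPM in basal keratinocytes, so the count of genes past 2-fold is not read against all genes.

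Between the tissues, pSEB held less of both SDR16C genes than sSEB. The log2 ratio of pSEB to sSEB was -1.45 (-1.94 to -0.91) for *Sdr16c5*, which is 2.73-fold lower, and -2.52 (-2.93 to -2.09) for *Sdr16c6*, which is 5.73-fold lower. *Rarg*, the only other of the 10 genes abundant enough, had a ratio of -0.71 with an interval that included 0 (-1.98 to 0.94). Thus 2 of 3 genes were at least 2-fold lower and 0 of 3 at least 2-fold higher in pSEB, where 18.2% of 4957 genes were lower and 16.2% higher. With at most 5% mitochondrial UMIs per cell, which left 20 sSEB and 619 pSEB, the ratios were -0.85 for *Sdr16c5*, under 2-fold, and -1.61 for *Sdr16c6*. The *Rarg* ratio, which rests on 5 UMIs in sSEB, was past 2-fold with an upper UMI limit together with doublet removal (-1.26), where all 3 genes were at least 2-fold lower, and near 0 with marker levels 1.5 times as high (-0.03). The mixture of stages also differed, with 15 of the 28 sSEB and 226 of the 793 pSEB late.

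SEB were divided into early cells, with more transcripts of basal keratin and integrin markers, and late cells, with more of the lipid synthesis markers. Of the 793 pSEB, 207 lay within 1.5-fold of the line between the stages, among them 58 in neither stage. Of the 28 sSEB, 1 lay within it and 0 were in neither stage. The basal keratinocyte markers, which include those of the early stage, together held 22344 CPM in basal keratinocytes of skin and 5987 CPM in those of PG. The same rule may thus not mark the same stage in both tissues. What these points add to the difference in stage profile between the tissues was not tested. In skin, *Sdr16c6* was at 54.3 CPM (11.2 to 159, 3 UMIs) in the 13 early cells and at 667 CPM (501 to 870, 54 UMIs) in the 15 late cells. *Sdr16c5* was at 163 CPM (74.5 to 309) and 334 CPM (220 to 485) in the same cells. In PG the 509 early and 226 late cells were much closer, with *Sdr16c6* at 64.2 CPM (54.8 to 74.8) and 80.7 CPM (67.0 to 96.4), and *Sdr16c5* at 89.9 CPM (78.7 to 102) and 105 CPM (88.9 to 122).

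As late over early log2 ratios these were 3.62 (1.99 to 5.94) for *Sdr16c6* and 1.03 (-0.10 to 2.31) for *Sdr16c5* in skin, and 0.33 (-0.02 to 0.68) and 0.22 (-0.08 to 0.52) in PG. In skin these 2 genes were the only ones of the 10 counted, and both were at least 2-fold higher in late cells, as were 23.8% of the 1814 genes counted, with 16.5% lower. The *Sdr16c5* ratio in skin was just under 2-fold with cells weighted equally (0.99) or with free RNA subtracted (0.96). In PG 3 genes were counted, of which 0 were at least 2-fold higher and 1, *Rarg*, was lower, where 3.89% of 4862 genes were higher and 3.76% lower. The tissues lay furthest apart in the cells called late, where *Sdr16c6* was 8.27-fold lower in PG (log2 ratio -3.05, -3.52 to -2.56) and *Sdr16c5* 3.19-fold lower (-1.67, -2.27 to -1.03). In early cells the intervals of both ratios included 0 (0.24, -1.33 to 2.53, and -0.86, -1.81 to 0.29).

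**Figure D3:**
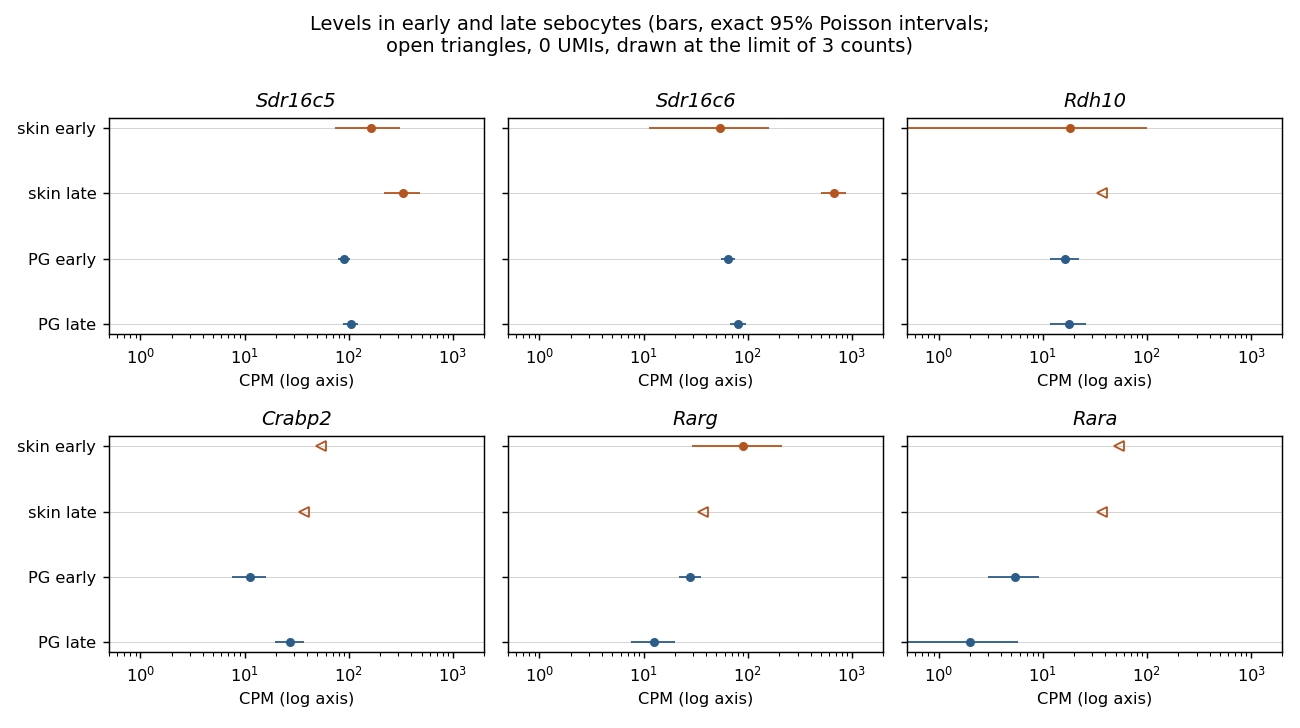
CPM of *Sdr16c5*, *Sdr16c6*, *Rdh10*, *Crabp2*, *Rarg* and *Rara* in early and late SEB of skin (13 and 15 cells) and PG (509 and 226 cells), with exact 95% Poisson intervals. *Sdr16c6* goes from 54.3 to 667 CPM between the stages in skin and from 64.2 to 80.7 CPM in PG, and *Rarg* goes from 28.0 to 12.7 CPM in PG; open triangles mark 0 UMIs at the level of 3 counts.

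The pSEB were not uniform in these genes either. *Sdr16c5* was at 108, 99.1 and 117 CPM in the pSEB clusters 2, 9 and 15, with overlapping intervals. *Sdr16c6* was at 129 CPM (111 to 150) in cluster 9, at 44.1 CPM (35.6 to 53.9) in cluster 2 and at 38.2 CPM (23.3 to 59.0) in cluster 15. In cluster 25, where *Crabp2* was high, *Sdr16c5* was at 9.17 CPM from 2 UMIs and *Sdr16c6* at 18.3 CPM from 4 UMIs. *Rdh10* was at 50.4 CPM (25.2 to 90.2, 11 UMIs) in this cluster.

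*Rdh10*, which encodes a membrane-bound retinol dehydrogenase, was low in every class. In skin it ranged from 0 UMIs in skeletal muscle cells to 22.1 CPM in contractile cells, from 2 UMIs, with 13.5 CPM (8.79 to 19.7) in fibroblasts and 3.59 CPM (2.50 to 4.99) in basal keratinocytes. In PG, pSEB held 71 of its 163 UMIs at 16.4 CPM (12.8 to 20.7), above 9.54 CPM (6.98 to 12.7) in basal keratinocytes, a log2 ratio of 0.78 (0.23 to 1.35). Early and late pSEB held 16.4 and 18.0 CPM, with an interval of the ratio that included 0 (0.14, -0.62 to 0.87). sSEB held 1 UMI, and the interval of the ratio between the tissues was correspondingly wide (1.16, -1.36 to 6.48). Basal keratinocytes held more in PG than in skin (log2 ratio 1.41, 0.75 to 2.09).

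*Dhrs9*, a short-chain dehydrogenase gene whose product can act on retinol and on hydroxysteroids, was counted almost entirely in skin. The gene, with both motifs in the window shown above, had 236 UMIs in skin and 4 in PG. Its level in skin was 21.3 CPM (16.2 to 27.5) in upper follicle and duct keratinocytes, 11.9 CPM (9.82 to 14.3) in basal keratinocytes, 6.73 CPM (3.58 to 11.5) in fibroblasts and 4.46 CPM (2.86 to 6.64) in suprabasal keratinocytes. Contractile cells held 33.1 CPM from 3 UMIs. sSEB held 0 UMIs, and pSEB held 0 UMIs in 793 cells, which allows up to 0.694 CPM. Basal keratinocytes of PG also held 0 UMIs, which places them at least 19.1-fold lower than those of skin. The duct class of PG held 1 UMI, for a log2 ratio to skin of -5.84 (-11.17 to -3.31). Both ratios are to skin classes whose UMIs lay unevenly over clusters.

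In skin, 71.2% of the *Dhrs9* UMIs were in clusters 20 and 11, which together held 425 cells. Cluster 20 (147 cells, led by *Gnmt*, *Slc7a8*, *Fblim1* and *Spon1*, 70.7% gated as basal keratinocytes) held 254 CPM (207 to 308) with a UMI in 42.2% of cells. Cluster 11 (278 cells, led by *Cmah*, *Pthlh*, *Ppp1r3b* and *Tnc*, 66.2% gated as upper follicle and duct keratinocytes) held 96.0 CPM (74.2 to 122) with a UMI in 18.3%. The level in the whole basal class was 11.9 CPM, and its clusters were far apart. Clusters 1 and 8 (1291 and 357 cells, 96.2% and 96.4% gated as basal) held 0.635 CPM from 2 UMIs and 0 UMIs. Cluster 2 (645 cells, 73.2% basal) held 9.04 CPM. The ratio of the basal classes between the tissues thus does not hold for clusters 1 and 8. Of the other clusters gated mostly as upper follicle and duct keratinocytes, cluster 7 (381 cells, led by *Krt79*, *Cst6* and *Defb6*) held 0.956 CPM from 1 UMI. Cluster 19 (159 cells) held 9.31 CPM from 4 UMIs.

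*Lrat*, which encodes the enzyme that esterifies retinol for storage and whose window above held TATAA alone, was counted in skin only, with 155 UMIs there and 0 in the 4699 cells of PG. Barcodes of at most 100 UMIs in PG also held 0. In skin its level was 20.6 CPM (15.6 to 26.7) in upper follicle and duct keratinocytes and 16.8 CPM (13.2 to 21.1) in hair matrix and inner root sheath cells, with overlapping intervals. Basal keratinocytes held 1.33 CPM (0.709 to 2.28), suprabasal keratinocytes 0.372 CPM from 2 UMIs, and sSEB 1 UMI. The ratio of the upper follicle and duct class to basal keratinocytes was 3.95 on the log2 scale (3.06 to 4.94). The duct class of PG was at least 18.5-fold lower than the upper follicle and duct class of skin as a whole. Cluster 11, the second of the *Dhrs9* clusters, held *Lrat* at 68.3 CPM (50.2 to 90.9), and cluster 9 (351 cells, led by the inner root sheath genes *Krt73*, *Krt71*, *Krt25* and *Tchh*) held 41.6 CPM (31.5 to 53.9). Cluster 20 held 17.4 CPM from 7 UMIs. Clusters 7 and 19, gated mostly as upper follicle and duct keratinocytes like cluster 11, held 6.69 CPM from 7 UMIs and 2.33 CPM from 1 UMI.

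*Stra6*, the gene for the cell surface receptor of the retinol carrier, was found in hair-forming cells of skin. Hair matrix and inner root sheath cells held 132 of its 249 UMIs, 53.0%, at 29.98 CPM (25.1 to 35.5). Upper follicle and duct keratinocytes held 17.7 CPM (13.1 to 23.4), basal keratinocytes 2.77 CPM (1.82 to 4.03), and sSEB 0 UMIs. Clusters 15, 27 and 37 together held 54.6% of the UMIs in 331 cells. Cluster 37 (33 cells, led by the hair keratins *Krt33b* and *Krt31*) held 199.6 CPM (152 to 257) with a UMI in 72.7% of cells at a median depth of 8941 UMIs, cluster 27 held 116 CPM (80.9 to 162), and cluster 15 held 46.5 CPM (33.4 to 63.1). In PG, where no hair matrix cells were gated, the duct class held 13.4 CPM (9.37 to 18.5), basal keratinocytes 6.84 CPM (4.71 to 9.61) and pSEB 0.925 CPM (0.252 to 2.37). The log2 ratio of pSEB to basal keratinocytes was -2.89 (-4.85 to -1.40), although the mean was below 20 CPM. The highest PG cluster was cluster 17 (66 cells, led by *Cstdc5* and *Hbegf*) at 92.8 CPM (57.5 to 142).

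The nuclear receptor genes had broader profiles. *Rarg*, the main retinoic acid receptor of epidermis, was found in every class of both tissues. In skin it was at 94.8 CPM (86.7 to 103) in suprabasal, 86.3 CPM (80.6 to 92.3) in basal and 64.7 CPM (55.5 to 74.9) in upper follicle and duct keratinocytes, at 51.2 CPM (41.6 to 62.4) in fibroblasts and at 45.6 CPM (39.6 to 52.4) in hair matrix and inner root sheath cells. Dermal papilla cells held 98.6 CPM from 7 UMIs, and sSEB 36.7 CPM (11.9 to 85.7) from 5 UMIs. In PG it was at 62.4 CPM (55.6 to 69.9) in basal keratinocytes, 57.7 CPM (43.6 to 75.0) in fibroblasts, 39.0 CPM (31.9 to 47.2) in the duct class and 22.4 CPM (18.2 to 27.4) in pSEB.

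Within the pSEB, *Rarg* was at 28.0 CPM (21.9 to 35.3) in early and 12.7 CPM (7.63 to 19.8) in late cells, a log2 ratio of -1.15 (-1.96 to -0.40). The mean of these levels was close to the limit of 20 CPM, and the gene was no longer past 2-fold or no longer counted under 5 of the other settings tried, where the ratio lay between -0.82 and -1.16. In skin all 5 *Rarg* UMIs of SEB were in early cells, at 90.6 CPM (29.4 to 211). Late cells held 0 UMIs (0 to 45.6 CPM), and the 2 intervals overlapped. Between the tissues *Rarg* was lower in PG in basal keratinocytes (log2 ratio -0.47, -0.66 to -0.28) and in the upper follicle and duct class (-0.73, -1.09 to -0.37), both under 2-fold. It was higher in PG in the gated endothelial cells, at 117 CPM (58.6 to 210, 11 UMIs) against 19.0 CPM (5.19 to 48.7, 4 UMIs). By cluster the gap was smaller. The endothelial clusters 31 and 32 of skin held 41.3 and 29.3 CPM, from 7 and 4 UMIs, and cluster 18 of PG held 92.4 CPM from 11 UMIs.

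*Rara* was highest in immune and endothelial cells of skin. T cells held 127 CPM (67.5 to 217), macrophages and dendritic cells 92.6 CPM (65.9 to 127) and endothelial cells 66.6 CPM (36.4 to 112), with overlapping intervals. Fibroblasts held 23.8 CPM (17.4 to 31.8), basal keratinocytes 17.6 CPM (15.1 to 20.5), and sSEB 0 UMIs, which allows up to 22.0 CPM. In PG the levels were 42.7 CPM from 4 UMIs in endothelial cells, 22.7 CPM (14.2 to 34.3) in fibroblasts, 17.4 CPM (7.53 to 34.4) in macrophages and dendritic cells, 7.67 CPM (5.40 to 10.6) in basal keratinocytes and 3.93 CPM (2.29 to 6.29) in pSEB. The 28 T cells of PG held 0 UMIs (0 to 75.9 CPM), an interval that overlapped that of skin T cells. Macrophages and dendritic cells held 5.31-fold less in PG than in skin (log2 ratio -2.41, -3.72 to -1.29), and basal keratinocytes 2.30-fold less (-1.20, -1.75 to -0.68). Fibroblasts did not differ beyond the interval (-0.07, -0.87 to 0.69). The immune classes were not made up alike. Among macrophage and dendritic clusters of skin, cluster 30 (*Cd207* among its leading genes) held 136 CPM, and clusters 24 and 29 held 64.5 and 47.5 CPM. Those of PG, clusters 11, 22 and 23, held 16.3, 38.6 and 0 CPM, and *Cd207* led none of them. In skin the T cell clusters 34 (led by *Trdv4* and *Trdc*) and 36 held 150 and 40.2 CPM. The part of cell type in these ratios was not tested.

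In both the suprabasal and the upper follicle and duct class of skin, *Crabp2*, *Sdr16c5* and *Sdr16c6* stood higher than in basal keratinocytes. *Rarg* differed little. In suprabasal over basal keratinocytes of skin 4 of the 10 genes were counted. The log2 ratios were 4.25 for *Crabp2*, 3.33 (2.97 to 3.71) for *Sdr16c5*, 6.00 (5.01 to 7.23) for *Sdr16c6* and 0.14 (-0.03 to 0.30) for *Rarg*. Thus 3 of 4 were at least 2-fold higher and 0 lower, where 10.1% of 5157 genes were higher and 9.23% lower. In upper follicle and duct over basal keratinocytes of skin the same 3 of 4 were higher and 0 lower, with ratios of 2.52 (2.09 to 2.95) for *Sdr16c5*, 5.68 (4.65 to 6.92) for *Sdr16c6* and -0.42 (-0.66 to -0.18) for *Rarg*, where 6.14% of 5278 genes were higher and 3.88% lower. In the duct class over basal keratinocytes of PG, 2 of 3 were higher and 0 lower, where 8.18% of 5136 genes were higher and 13.3% lower. Here *Sdr16c6* had a ratio of 5.99 (4.60 to 7.89) and *Rarg* of -0.68 (-1.01 to -0.35), and *Sdr16c5*, with a ratio of 1.01 (0.47 to 1.54), was below the limit on the mean. With clusters in place of the gates, the ratios of *Sdr16c6* in skin were smaller, 3.45 for suprabasal and 3.13 for upper follicle and duct keratinocytes, as were those of *Sdr16c5* (2.80 and 1.81), and that of *Crabp2* in the upper follicle and duct class was 3.76. The genes counted here passed the limit on the mean mostly through the class where they were high, while *Dhrs9* (-1.41) and *Stra6* (-2.31), lower in suprabasal than in basal keratinocytes, were below it. Basal keratinocytes enter each of these ratios and those of SEB, so the ratios of a gene within a tissue are not independent.

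**Figure D4:**
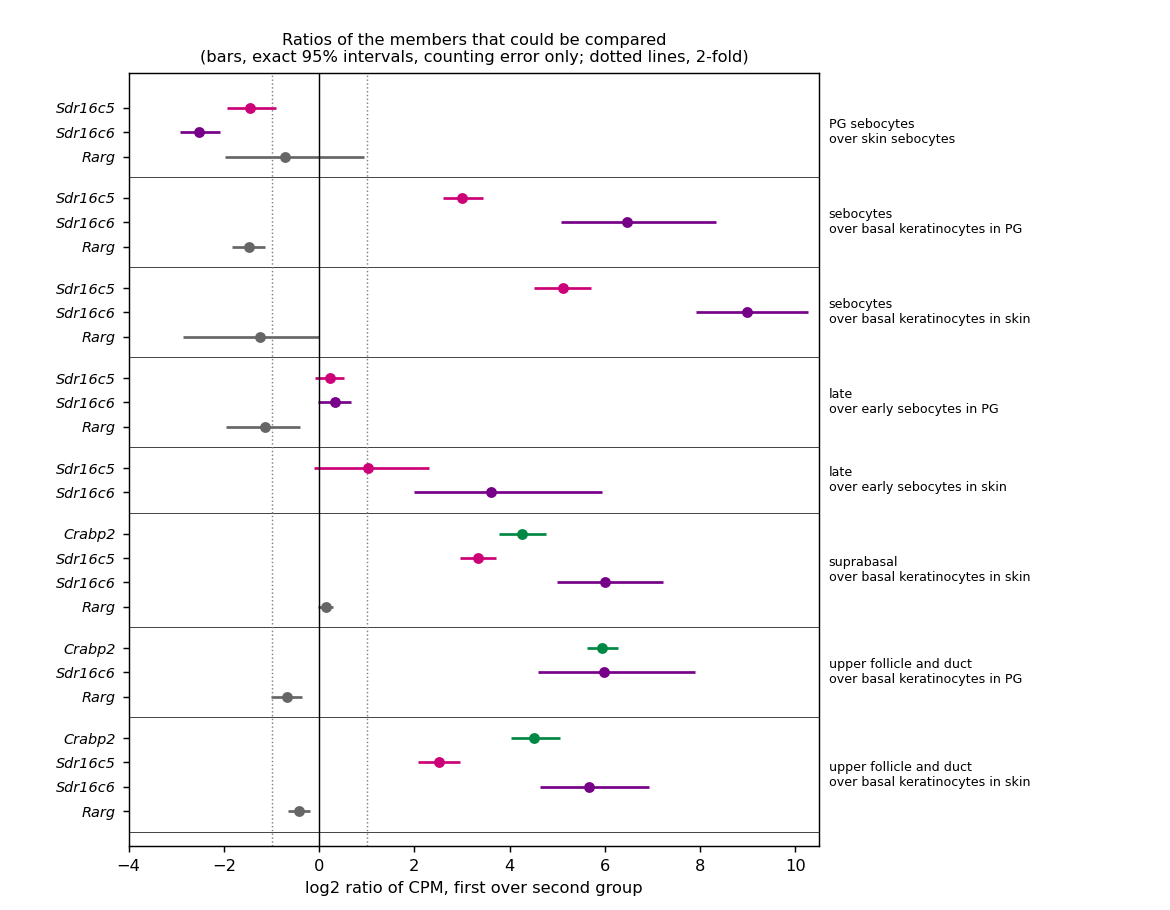
Log2 ratios of *Sdr16c5*, *Sdr16c6*, *Rarg* and *Crabp2* in the 8 comparisons, with exact 95% intervals of counting error and dotted lines at 2-fold; a gene is drawn only where it was abundant enough. *Sdr16c5* and *Sdr16c6* lie right of 2-fold in SEB over basal keratinocytes of both tissues and left of it in pSEB over sSEB.

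Over the 17 class and tissue groups of at least 30 cells, which share 2 libraries, the genes whose log2(CPM + 5) ran most closely with each of the 10 were named as a description. This limit left out sSEB (28 cells) and dermal papilla cells (29 cells). The closest genes of *Sdr16c5*, *Sdr16c6* and *Crabp1* were thus found without the class where each was highest in skin. For *Sdr16c5* these were *Prss8* (Pearson r = 0.936), *Mboat2* (0.915) and *Abhd5* (0.888). For *Sdr16c6* they were *Ly6g6e* (0.893), *Psapl1* (0.885) and *Liph* (0.883). *Crabp2* ran with *Ptk6* (0.935), *Atp6v0a4* (0.922) and *Atp6v1c2* (0.908), and *Crabp1* with *Sult1e1* (0.888), *Serpina3c* (0.871) and *Aox3* (0.868). *Dhrs9* ran with *Robo2* (0.930), *Tnc* (0.888) and *Olfr1124* (0.868), of which *Tnc* was also a leading gene of cluster 11. *Lrat* ran with *Ptcra* (0.916), *Tnni1* (0.889) and *Krt75* (0.864), and *Stra6* with *S100a2* (0.931), *Trpv3* (0.902) and *Phlda2* (0.867). The closest genes were *Syne3* (0.925) for *Rara*, *Fam20b* (0.814) for *Rarg* and *Jkamp* (0.877) for *Rdh10*.

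Of 40 other genes of the pathway, 17 were counted in the comparison of pSEB with sSEB. Among those reported here, *Rdh1* and *Adh1* were at least 2-fold higher in pSEB and *Rdh11*, *Rdh12*, *Fabp5* and *Nrip1* at least 2-fold lower. Over all 4957 genes counted, 16.2% were higher and 18.2% lower. *Adh1*, an alcohol dehydrogenase that also oxidises retinol, was at 821 CPM in pSEB and 44.1 CPM in sSEB (log2 ratio 4.22, 3.10 to 5.67). *Fabp5*, a fatty acid carrier that also binds retinoic acid, was at 2569 CPM in pSEB and 19330 CPM in sSEB (-2.91, -2.97 to -2.85). The retinal reductase genes *Rdh11* and *Rdh12* were at 48.3 and 6.01 CPM in pSEB and at 103 and 58.8 CPM in sSEB. *Nrip1*, a corepressor gene, was at 53.6 and 110.2 CPM in the same order.

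Other pathway genes with at least 50 CPM in SEB were within 2-fold between the tissues. Among oxidoreductases, *Dhrs7* was at 387 CPM in pSEB and 609.6 CPM in sSEB, *Dhrs4* at 81.8 and 162 CPM, *Adh7* at 200.7 and 220.3 CPM, and *Dhrs3* at 76.3 and 66.1 CPM. *Dgat1*, an acyltransferase that can also esterify retinol, was at 33.3 and 66.1 CPM, the receptor gene *Rxra* at 63.1 and 44.1 CPM, and the corepressor gene *Ncor1* at 123 and 154 CPM. *Dhrs4* and *Dgat1* lay just under 2-fold, and *Nrip1* and *Rdh11* just past it. With 1 UMI at 7.34 CPM in sSEB, the 2-fold line does not set these genes apart. The genes that make retinoic acid were nearly absent from pSEB, where *Aldh1a1* and *Aldh1a2* held 0 UMIs and *Aldh1a3* 1 UMI. In sSEB *Aldh1a1* and *Aldh1a2* also held 0 UMIs, which allows up to 22.0 CPM. These aldehyde dehydrogenase genes were highest elsewhere, *Aldh1a3* at 126 CPM in skin fibroblasts, *Aldh1a1* at 128 CPM in skeletal muscle cells of skin and *Aldh1a2* at 44.3 CPM in PG fibroblasts. *Cyp26b1*, which breaks retinoic acid down, held 169 CPM (87.3 to 295) in dermal papilla cells, the class with the highest *Crabp1* level, and 2 UMIs in pSEB.

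Within the tissues, SEB were compared with basal keratinocytes for the same list. In PG, 18 of the 40 genes were counted, of which *Rdh1*, *Rdh9*, *Rdh11*, *Dhrs4*, *Dhrs7* and *Fabp5* were at least 2-fold higher and, among those reported here, *Adh7* lower. In skin 14 were counted, of which 9 were higher (*Dgat1*, *Rdh11*, *Rdh12*, *Dhrs3*, *Dhrs4*, *Dhrs7*, *Adh1*, *Adh7* and *Fabp5*). Over all genes counted, 7.98% were higher and 9.7% lower in PG, and 18.8% and 17% in skin. The limit on the mean can keep a gene through its level in SEB alone, so these counts are not read against all genes. *Adh7* thus passed in opposite directions in the 2 tissues, with its highest level, 478 CPM, in basal keratinocytes of PG. Late over early, *Fabp5* was higher in both tissues, with *Rdh1* and *Rdh9* in PG and *Rdh11* and *Dhrs7* in skin, and *Adh7* was lower in late pSEB, among 18 genes counted in PG and 7 in skin. In the 3 keratinocyte comparisons *Rdh12* and *Fabp5* were higher than in basal keratinocytes each time, among 11, 15 and 12 genes counted. The shares over all genes in the stage and keratinocyte comparisons are those given above for the 10 genes.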

How the data were processed

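The data were 2 single-cell libraries of polyadenylated RNA, 1 of back skin and 1 of PG. The authors deposited raw UMI counts per gene and barcode with no filter on cells. Per the file headers they were made with Cell Ranger 4, and the submitters' processing notes name the build mm10.

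Barcodes were kept from 500 genes and 1000 UMIs upward where no more than 10% of UMIs were mitochondrial (skin 27407186 UMIs, PG 15270076 UMIs). Each cell was placed in a class where its marker genes together passed a set level per 10000 UMIs with a set number of markers detected (for SEB, 30 and 4). These levels were set after the data had been seen, and the 10 genes and all lists were chosen with earlier results of these data known. Cells with markers of classes that exclude each other (skin 236, PG 86) and cells that passed no gate (skin 337, PG 492) were left out of the classes. Other cells that passed more than 1 gate were kept. SEB that also passed the basal or duct gate stayed SEB, and hair matrix cells that passed a keratinocyte gate stayed in their class. The suprabasal and duct gates came before the basal gate, and the papilla and contractile gates before the fibroblast gate. Doublets were removed only as an alternative. Clusters were Leiden clusters at resolution 1 on 30 principal components of 2000 variable genes, without the 10 genes. UMIs were summed per class. Levels have exact Poisson intervals, shares Clopper-Pearson intervals, and ratios exact binomial intervals. Only the ratio intervals were tried on simulated data. Those were Poisson counts, the model the intervals assume, so the trial cannot speak to UMIs gathered in few cells. A gene was counted in a comparison with a mean of at least 20 CPM and at least 10 UMIs, and called at 2-fold. A count of 0 was given the limit of 3 counts. A fold given as a lower limit on that basis leaves out the counting error of the other group. Other pathway genes are named with at least 50 CPM in SEB or as the highest of their role, and the 3 closest genes by Pearson r of log2(CPM + 5). Some genes of the pathway list are not reported here by name, and counts of genes counted cover the whole list. The PG library held 1 suprabasal cell, so suprabasal over basal keratinocytes was made in skin only, and the upper follicle and duct comparisons were added after the gates were seen. Promoters came from RefSeq (GRCm38.p6) and positions from GENCODE M21. Python 3.11.15, numpy 2.4.6, scipy 1.17.1, pandas 2.3.3, scikit-learn 1.9.0, igraph 0.11.9, leidenalg 0.10.2 and matplotlib 3.10.9 were used.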

Additional observations from a re-analysis of the deposited data

Results flagged for a closer look

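Barcodes above the limit of 10% mitochondrial UMIs enter no comparison. In skin 232 barcodes were above it, of which 8 passed the SEB gate. These 8 held *Sdr16c5* at 852 CPM (477 to 1405, 15 UMIs) and *Sdr16c6* at 2329 CPM (1671 to 3160, 41 UMIs), above the 264 and 419 CPM of the 28 sSEB that were kept. In PG the 159 such barcodes held 36.7 and 95.4 CPM, beside 96.9 and 73.1 CPM in the pSEB kept. The part of the mitochondrial limit in the difference between the tissues was examined only as the limit of 5%.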

How the results depend on the processing

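No paired analysis was possible because each tissue was 1 library and no result came from a test, and for the same reason no replicate could be left out. The counts of the 10 genes past 2-fold that changed were these. For late over early pSEB the count of 1 became 0 with Leiden clusters as classes, with marker levels 1.5 times as high, with at least 1000 genes and 2000 UMIs, with at most 5% mitochondrial UMIs and with a mean of at least 50 CPM. With at most 5% mitochondrial UMIs, pSEB over sSEB gave 1 in place of 2. For late over early sSEB the count of 2 became 1 with the mean of CPM over cells and with free RNA subtracted. With a mean of at least 50 CPM, SEB over basal keratinocytes in PG gave 1 in place of 3, suprabasal over basal in skin 0 in place of 3, and upper follicle and duct over basal 1 in place of 2 in PG and 0 in place of 3 in skin, since fewer genes were counted. With an upper UMI limit together with doublet removal, pSEB over sSEB gave 3 in place of 2 and SEB over basal in skin 2 in place of 3, which was also 2 with at most 5% mitochondrial UMIs. Upper follicle and duct over basal in skin gave 2 in place of 3 with at least 1000 genes and 2000 UMIs. Called at 1.5-fold, pSEB over sSEB and the duct class over basal in PG gave 3 in place of 2. The class with the highest level was the same in 11 of 18 gene and tissue pairs with Leiden clusters and in 9 with at least 1000 genes and 2000 UMIs, and the causes were not tested. Of 161 ratios of single genes recomputed, 143 stayed within the interval reported above, 18 moved out of it and 0 changed direction. Leiden clusters gave no sSEB cluster, so comparisons with sSEB have no value there. The 28 sSEB limit every value for that class, since 1 UMI is 7.34 CPM in it.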
